A study of Mus musculus with 71 samples.

Results

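*Hes1* was the promoter with the largest loop score outside the *Hox* clusters in H3K27ac HiChIP of mouse synovial sarcoma (SyS) tumors. HiChIP joins chromatin conformation capture to immunoprecipitation, so that an antibody against H3K27ac, a histone mark of active promoters and enhancers, enriches pairs of DNA fragments that lay close together at active chromatin. The loops of *Hes1* were those with 1 anchor overlapping the 2 kb on either side of any of its transcription start sites (TSSs) in GENCODE, and they numbered 31 of the 24244 loops in the deposited list. Each loop carried a count of paired-end tags, the read pairs that join its anchors, and summing the tags over the loops of a promoter gave its loop score. *Hes1* was chosen by this score, so its score, its rank and the tags of its loops are given as a description with no test.

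The list was made from 2 tumors of a single group, labeled as SyS mouse tumors with the genotype SS18::SSX2. These *hSS2* mice expressed human *SS18::SSX2*, the fusion gene of this cancer, and tumors were started in the hindlimb by injection of TATCre protein on the eighth day of life. TATCre is a cell-permeable recombinase, so no promoter limited it to a cell type, and the methods name no sorting of the dissociated tumors before crosslinking. There was no control tissue and no other genotype in the HiChIP. The authors called loops in each tumor and merged them, and the deposited list gives no count per tumor. It held 41574 tags in 2 parts that are each sorted by position, the first with 13683 loops and 28657 tags and the second with 10561 loops and 12917 tags. Neither part was assigned to a tumor, so values are given for both parts without being treated as replicates.

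*Hes1* encodes a basic helix-loop-helix repressor of transcription that keeps progenitor cells undifferentiated in many tissues. It is a classic target of Notch signaling, in which the cleaved receptor enters the nucleus and binds DNA through RBPJ together with a Mastermind coactivator. HES1 protein binds N-box and E-box sequences, including some in its own promoter, and recruits TLE corepressors. Contacts between a promoter and distant H3K27ac-marked DNA are commonly read as candidate enhancer contacts, but the tags measure proximity and not activity, and neither RNA nor binding at these anchors was measured in the files used here.

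The distal anchors of the 31 loops were joined where they overlapped, which gave 25 loci numbered in order along chromosome 16. The sequences at the centers of 4 of them are shown because these loci were the strongest contacts of their kind: locus 16 had the most tags of all, locus 20 held the strongest single loop and the TSS of a noncoding gene, locus 21 was the strongest downstream of *Hes1*, and locus 10 had a second noncoding gene starting less than 2 kb away. Each is the plus strand of GRCm38, the assembly that mm10 denotes, over the central 300 bases of the stretch shared by the anchors of the locus. Capitals mark the core sequence bound by RBPJ, GTGGGAA or its reverse complement TTCCCAC, and GATC, the site of MboI, the enzyme that cut the chromatin.
locus 16, chr16:29893654-29893953, plus strand: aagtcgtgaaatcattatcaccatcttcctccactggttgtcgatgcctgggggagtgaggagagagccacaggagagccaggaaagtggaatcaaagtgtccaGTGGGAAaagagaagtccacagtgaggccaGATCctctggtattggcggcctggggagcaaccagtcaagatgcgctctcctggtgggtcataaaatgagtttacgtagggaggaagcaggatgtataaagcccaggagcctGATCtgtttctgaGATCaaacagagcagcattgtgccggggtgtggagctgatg
locus 20, chr16:30008794-30009093, plus strand: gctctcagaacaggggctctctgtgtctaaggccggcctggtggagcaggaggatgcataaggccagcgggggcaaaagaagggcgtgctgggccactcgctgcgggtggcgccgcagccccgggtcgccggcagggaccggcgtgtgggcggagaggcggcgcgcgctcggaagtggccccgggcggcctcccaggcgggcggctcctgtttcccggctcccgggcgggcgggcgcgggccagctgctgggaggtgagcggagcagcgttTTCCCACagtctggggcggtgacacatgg
locus 21, chr16:30187993-30188292, plus strand: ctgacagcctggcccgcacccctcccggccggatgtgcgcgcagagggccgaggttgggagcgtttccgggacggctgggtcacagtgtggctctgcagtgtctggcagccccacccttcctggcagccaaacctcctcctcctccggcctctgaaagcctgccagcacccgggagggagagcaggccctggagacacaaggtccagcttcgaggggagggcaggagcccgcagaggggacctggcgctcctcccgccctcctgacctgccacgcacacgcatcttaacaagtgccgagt
locus 10, chr16:29813921-29814220, plus strand: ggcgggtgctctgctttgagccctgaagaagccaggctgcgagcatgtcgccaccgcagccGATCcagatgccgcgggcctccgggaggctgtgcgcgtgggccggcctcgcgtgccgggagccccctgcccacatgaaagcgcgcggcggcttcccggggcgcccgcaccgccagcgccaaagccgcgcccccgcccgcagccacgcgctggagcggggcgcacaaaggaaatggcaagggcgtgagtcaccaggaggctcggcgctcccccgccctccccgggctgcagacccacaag

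The RBPJ core was found once in the printed window of locus 16 and once in that of locus 20. For a count over all anchors the window was instead centered on each anchor by itself. Over the 30 distinct distal anchors of *Hes1*, 3 (10.0%) held GTGGGAA on either strand in their central 300 bases, compared with 6.50% of all 16864 anchors in the list and 6.38% of the 32851 RefSeq promoters of the same length. These 3 anchors lay at loci 11, 16 and 20. The match counted at locus 16 lay at chr16:29893998-29894297, the center of its anchor in the second part, and not in the window printed for that locus. The N-box, CACNAG, was found in 17 of the 30 (56.7%) compared with 43.1% of all anchors, and the E-box, CACGTG, in 1 of 30 (3.33%) compared with 6.22%. The AP-1 motif, TGANTCA, was found in 2 of 30 (6.67%) compared with 5.21%. These are matches of letters on both strands, in which the motifs may overlap, and they do not say whether a factor was bound. The 3 windows at loci 10, 20 and 21 were rich in G and C, at 74.7%, 73.7% and 68.7%, while the window at locus 16 was at 52.3%. The median over the centers of all anchors was 58.0%. The center of locus 21 was thus GC-rich, with no annotated TSS nearer to the locus than 5.88 kb. Over its whole length locus 21 was at 52.6%, compared with a median of 51.3% over all whole anchors.

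*Hes1* lies on the plus strand at chr16:30064384-30067796 and is a short gene with 4 annotated TSSs. All 31 loops used the same promoter anchor, chr16:30062747-30072353, in both parts of the list. This anchor was 9.61 kb wide, took in the whole gene, began 1.64 kb before the first TSS and ended 4.56 kb past the end of the gene. Only 7 of the 16864 anchors were wider, and the median width was 2.59 kb. The anchor held 21 MboI sites, compared with a median of 5 per anchor, which is 2.19 sites per kb compared with 1.77. The 2 kb window did not decide which anchors were counted. The nearest anchor that did not qualify was 14.5 kb from a TSS of *Hes1* and had 3 loops of 1 tag each, and the next was 54.0 kb away and was itself a distal anchor of *Hes1*.

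The 31 loops held 225 tags (exact Poisson 95% interval 197 to 256, which covers counting error only), or 0.541% of all tags in the list. *Hes1* ranked 6 of 13234 looped promoters, whose median score was 4, and the 5 above it were all in the *Hox* clusters. Loops with at least 4 tags numbered 14 of the 31 (45.2%), compared with 6.74% of all loops. An FDR, the adjusted p-value of the authors' loop caller, under 0.01 was assigned to 20 of the 31 (64.5%), compared with 15.2% of all loops, and the highest FDR at *Hes1* was 0.0325. The same tags gave *Hes1* its place, so these counts describe how the score was made up. By number of loops alone *Hes1* ranked 41 among the looped promoters, so it had many loops as well as loops with many tags. The part of each in the score was not tested.

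**Figure D1:**
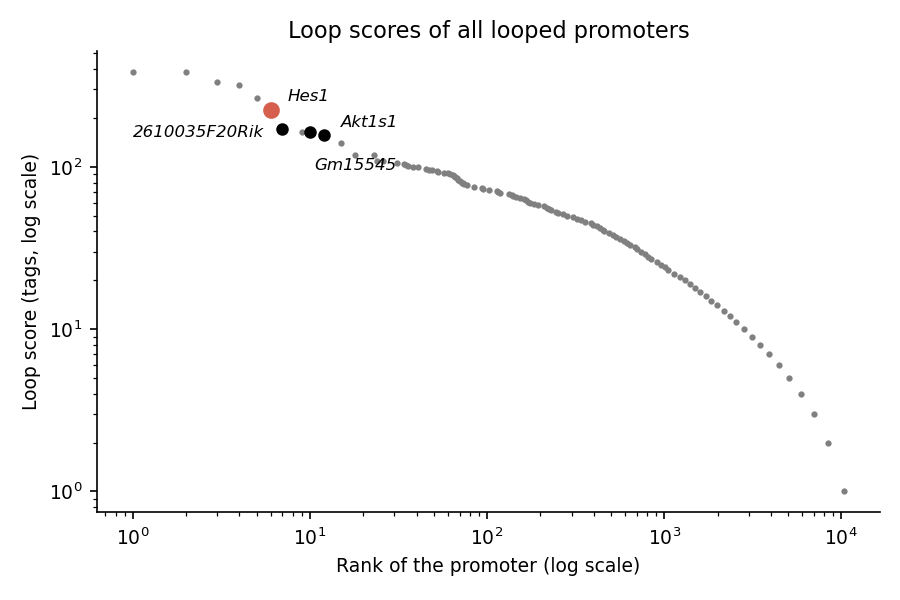
Loop score of each promoter (tags, log scale) against its rank (log scale) over 13234 looped promoters, with tied promoters drawn once. *Hes1* (large point) had 225 tags and the promoters next below it outside the *Hox* clusters (small black points) had 172, 163 and 156.

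Both parts of the list placed *Hes1* near the top, which its choice by the tags of both parts together made likely. The first part gave it 12 loops and 169 tags, which is 5.90 per 1000 tags, and there it was behind 5 promoters, all in the *Hox* clusters. The second part gave it 19 loops and 56 tags, which is 4.34 per 1000 tags, behind *Zfp608* alone with 65 tags and level with *Meis1*, *Hoxb2* and *Hoxb3os*. The loops differed in their tags between the parts. In the first part the median *Hes1* loop had 14.5 tags and 1 of 12 had a single tag. In the second the median was 1 tag and 10 of 19 had a single tag. Over all loops, those with a single tag made up 69.5% of the first part and 89.1% of the second. The first part also held most of the tags of the whole list, and whether the parts differ in tumor, depth or filtering cannot be told apart from the list.

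The loops spanned from 58.6 kb to 1.36 Mb between anchor midpoints, with a median of 231 kb compared with 500 kb over all loops. No *Hes1* loop under 20 kb was listed, although loops under 20 kb held 14.8% of all tags. The class of 20 to 100 kb held 38 tags at *Hes1* (16.9%, compared with 14% of all tags). The class of 100 to 500 kb held 184 tags (81.8%, compared with 38.9%), and loops over 500 kb held 3 tags (1.33%, compared with 32.3%). The tags of *Hes1* were thus packed into intermediate distances. When loops under 20 kb were left out for every promoter, *Hes1* ranked 1 in the genome with 225 tags, above *Hoxc5* with 177, *Mir196a-2* with 162 and *Hoxc9* with 151. This filter could take no tag from *Hes1*, which had no loop that short, while *Hoxc5* fell from 385 tags. The new rank thus restates the absence of listed short loops at *Hes1*. In the other direction, dividing the score by the width of the promoter anchor gave 23.4 tags per kb and rank 71. The *Hes1* anchor was both wide and high in score, and the part of its width in the score was not tested.

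**Figure D2:**
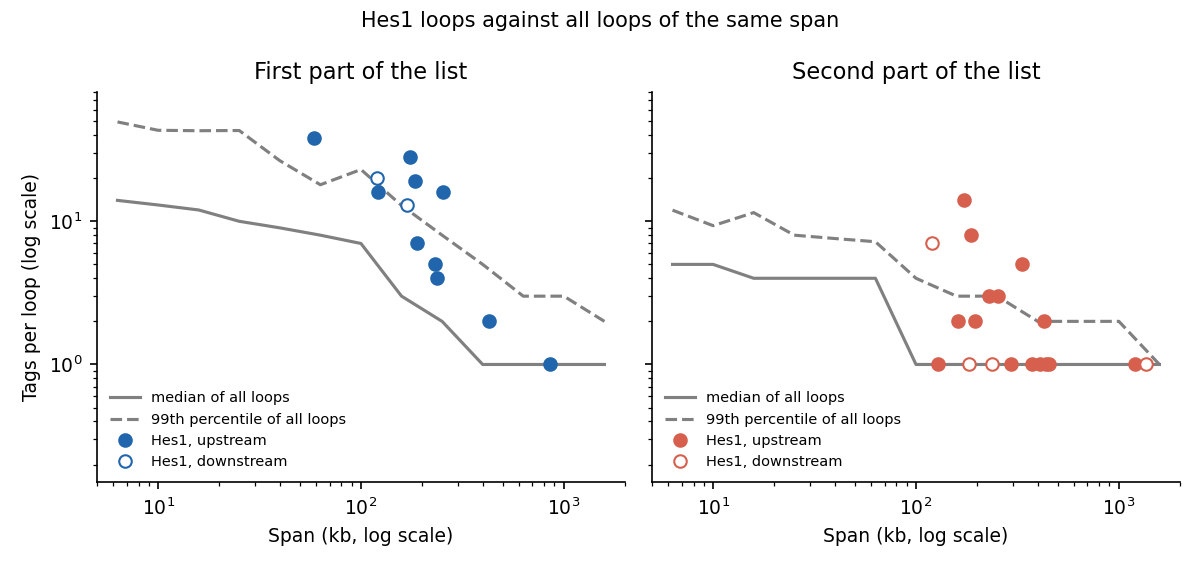
Tags per loop against span (both log scales) for the *Hes1* loops of each part of the list, upstream (filled) or downstream (open) of the gene, with the median (solid line) and the 99th percentile (dashed line) of all loops in bins of span. The 38-tag and 28-tag loops of the first part and the 14-tag loop of the second lay above the dashed lines, and the single-tag loops of the second part lay at its median.

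Upstream DNA held most of the contacts. A total of 182 tags in 25 loops joined *Hes1* to 20 loci upstream (80.9%, Wilson 95% interval 75.2% to 85.5%), and 43 tags in 6 loops joined it to 5 loci downstream (19.1%). The downstream share was 19.5% in the first part and 17.9% in the second, so both parts gave the same side. The upstream contacts fell mainly in the 447.8 kb between the last TSS of *Opa1*, a mitochondrial fusion GTPase, and the first TSS of *Hes1*. This interval held no TSS of a protein-coding gene and the TSSs of 7 noncoding genes, and it took in 22 of the 31 loops and 179 of the 225 tags (79.6%). Downstream, the first protein-coding TSS was that of *Cpn2*, a subunit of carboxypeptidase N, 201 kb from the last TSS of *Hes1*.

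**Figure D3:**
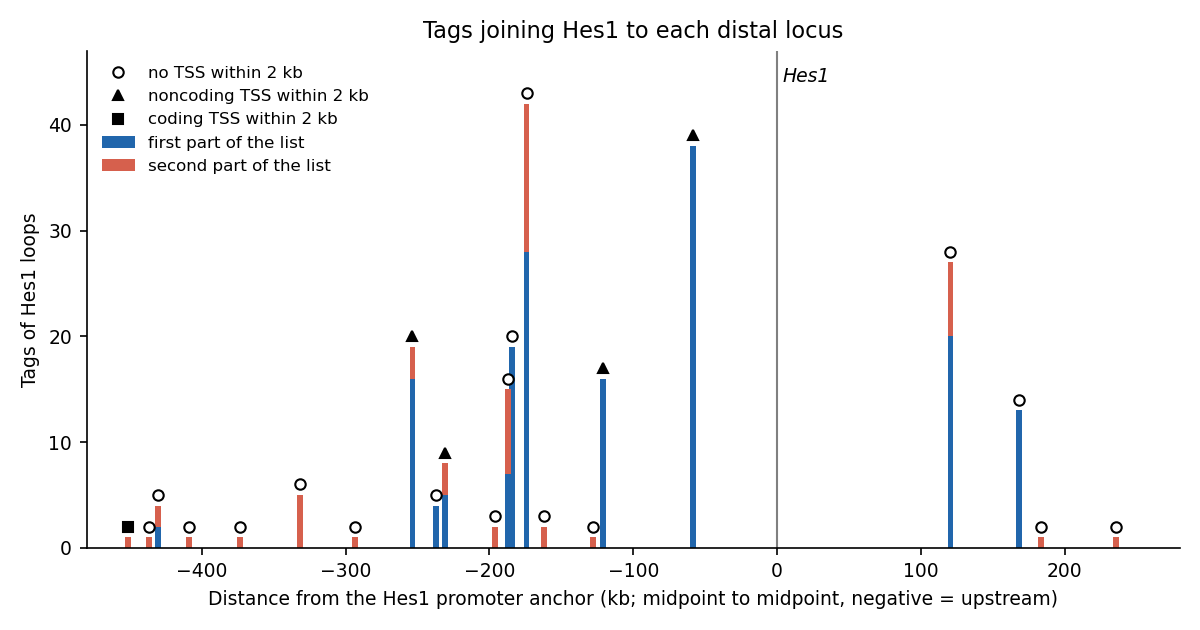
Tags joining *Hes1* to each distal locus against its distance from the *Hes1* promoter anchor in kb (negative is upstream), split by part of the list, with symbols for the kind of TSS within 2 kb. The bars reach 42 tags at locus 16 and 38 at locus 20, and 3 loci with a single tag each lie beyond the axis.

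Locus 16 (chr16:29891911-29895558), 174 kb upstream, had the most tags. It had 28 tags in the first part and 14 in the second, or 42 in all, and no TSS lay within 50 kb of it. Its 28-tag loop was the highest of the 727 loops of the first part with a span from 0.8 to 1.25 times its own, whose median was 2 tags. Its 14-tag loop was among the top 2 of 2048 loops of like span in the second part, whose median was 1 tag. The nearest protein-coding TSS was that of *Hes1* itself.

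Next to it lay loci 14 and 15, which abut each other at 187 and 184 kb upstream. Locus 14 (chr16:29878691-29882175) had 7 tags in the first part and 8 in the second, and locus 15 (chr16:29882176-29883981) had 19 in the first part and none listed in the second. No TSS lay within 40 kb of either. The boundary between these loci follows the anchors of the list, in which the second part listed no anchor at locus 15 but a wider one at locus 14. Together, loci 14 to 16 thus formed a stretch of contacts far from any annotated start site, and they held 76 of the 225 tags (33.8%).

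Locus 20 (chr16:30007456-30010430), 58.6 kb upstream, held the strongest single loop, with 38 tags in the first part. This was the highest of 134 loops of like span there, whose median was 9 tags. The second part listed no loop between this locus and *Hes1*, although it listed 3 single-tag loops from the locus to other DNA. Loops of 50.1 to 79.4 kb were few in the second part, 41 with a median of 4 tags. At 79.4 to 126 kb it listed 685, with a median of 1 tag. Whether weaker loops of the shorter span were left out of the list was not tested. The TSS of the long noncoding gene *4632428C04Rik* lay inside the anchor. The function of this RNA is not described in the sources used here. Its promoter had a loop score of 75, of which 38 tags went to *Hes1* and 35 to other loci of *Hes1*, so nearly all of its listed contacts lay within the same neighborhood.

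The other noncoding genes with a TSS within 2 kb of a contacted locus were *Gm26834* at locus 10, *Gm26569* at locus 19 and *Gm32679* at locus 12. Locus 10 (chr16:29813008-29815133), 253 kb upstream, had 16 tags in the first part and 3 in the second. Locus 19 (chr16:29944631-29947999), 121 kb upstream, had 16 tags in the first part and none listed in the second. Locus 12 (chr16:29835236-29841933), 231 kb upstream, had 5 tags in the first part and 3 in the second. The 4 loci with only noncoding TSSs nearby thus held 81 of the 225 tags (36%). The interval held 3 further noncoding genes, *Gm1968*, *9030404E10Rik* and *Gm49636*, whose promoters had no loop listed.

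Downstream, locus 21 (chr16:30185668-30189188), 121 kb from the promoter anchor, had 20 tags in the first part and 7 in the second. Its 20-tag loop was the highest of 75 loops of like span in the first part, whose median was 8 tags. The nearest TSS was that of the noncoding gene *1700025H01Rik*, outside the 2 kb window. Locus 22 (chr16:30234050-30237248), 168 kb downstream, had 13 tags in the first part and none listed in the second. These 2 loci held 40 of the 43 downstream tags, and the remaining 3 downstream loci had 1 tag each.

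The weaker loci filled the rest of the upstream interval. Locus 8, 331.5 kb upstream, had 5 tags, all in the second part, and was the strongest of the 13 loci seen in that part alone, which held 19 tags between them. Locus 5, inside *Opa1* and 430 kb upstream, had 2 tags in each part. Locus 11, 237 kb upstream, had 4 tags, all in the first part. Loci 13 and 17 had 2 tags each in the second part. The remaining 11 loci, 3 of them downstream, had a single tag each.

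Both parts had tags to *Hes1* at 6 of the 25 loci (loci 5, 10, 12, 14, 16 and 21), and these held 115 tags (51.1%). No like share over the loci of other promoters is given here, so whether this overlap is high or low was not shown. A further 6 loci had tags in the first part alone, with 91 tags, and at 4 of these 6 the second part listed other loops. Of the 13 loci of the second part alone, 2 had other loops in the first part. A list that holds only loops past an FDR threshold gives no count for a contact it leaves out, so a locus seen in a single part was not shown to differ between the parts.

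Few of the distal anchors lay at the promoters of other genes. Of the 30 distinct distal anchors 7 (23.3%, Wilson 95% interval 11.8% to 40.9%) lay within 2 kb of a TSS of another gene, compared with 87.2% over the distal anchors of all looped promoters, in which an anchor is counted once for each promoter it was joined to. Counted once each, 78.6% of 15449 distal anchors of all promoters lay near a TSS of another gene. Among the 229 promoters with at least 20 distinct distal anchors *Hes1* had the third lowest share, after *Zfp608* with 17.9% and *AC129179.3* with 20%, and the median share was 95%. The low share at *Hes1* came with no protein-coding TSS in the 447.8 kb upstream, and the part of gene density in the share was not tested.

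Protein-coding promoters were joined to *Hes1* by single tags only. These were *Opa1* at locus 3, *Hrasls*, a phospholipid acyltransferase, at locus 2, and *Bdh1*, a mitochondrial enzyme of ketone body metabolism, at locus 25. They held 3 of the 225 tags (1.33%). The other 222 tags went to 18 loci near no TSS, with 141 tags (62.7%), and to the 4 loci with noncoding TSSs. No protein-coding TSS lay between *Hes1* and 21 of the 25 loci, and these held 221 tags (98.2%). *Hes1* had the nearest protein-coding TSS for 8 loci with 135 tags (60%), and for most of the others upstream the nearest was *Opa1*.

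The neighboring protein-coding promoters had few loops of their own. *Opa1* had a score of 5, *Atp13a3*, a polyamine transporter, 13, *Mb21d2* 13, *Bdh1* 9, *Fam43a* 8, *Lsg1*, a GTPase of ribosome assembly, 7, and *Gp5*, a platelet glycoprotein, 1. No loop was listed for *Cpn2*, *Lrrc15*, *Atp13a4*, *Atp13a5* or *Tmem44*. At the 25 loci of *Hes1*, 113 loops with 381 tags were listed in all. Of these tags 225 (59.1%) went to *Hes1*, 113 (29.7%) joined the loci to each other, 20 (5.25%) went to other protein-coding promoters in 20 loops of 1 tag each, and 23 (6.04%) went elsewhere. *Mb21d2* and *Atp13a3* each had 6 single-tag loops to these loci, and *Opa1*, which flanks the interval, had none. *Hes1* was thus the protein-coding promoter with the most tags to these loci, which were chosen as its own contacts.

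The loci were also joined to each other. Loops between them that did not touch the *Hes1* anchor numbered 40, held 113 tags and joined 37 of the 300 possible pairs (12.3%), with 19 of the 25 loci taking part. Locus 16 was joined to 10 others with 57 tags, more than any other locus. Its strongest pair was with locus 14, with 13 tags in the first part and 5 in the second over 13.3 kb. These were near the medians of all loops of 12.6 to 19.9 kb, 12 tags in the first part and 4 in the second. The pair of loci 15 and 16 had 12 tags over 10.7 kb, where first-part loops of 7.93 to 12.6 kb had a median of 13. The pair of loci 16 and 20 had 11, of which 10 were in the first part, over 115 kb. Loci 10 and 16 followed with 8 over 79.7 kb, and first-part loops of 79.4 to 126 kb had a median of 7. Loci 10 and 20 had 7 over 195 kb, and first-part loops of 126 to 200 kb had a median of 3. These 5 pairs held 56 of the 113 tags (49.6%). Both parts had loops at 3 of the 37 joined pairs, and no like share over the list is given here. Pairs that crossed *Hes1* numbered 18, with 30 tags and at most 4 in a pair. Upstream and downstream loci were therefore joined past the gene, but by few tags each.

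**Figure D4:**
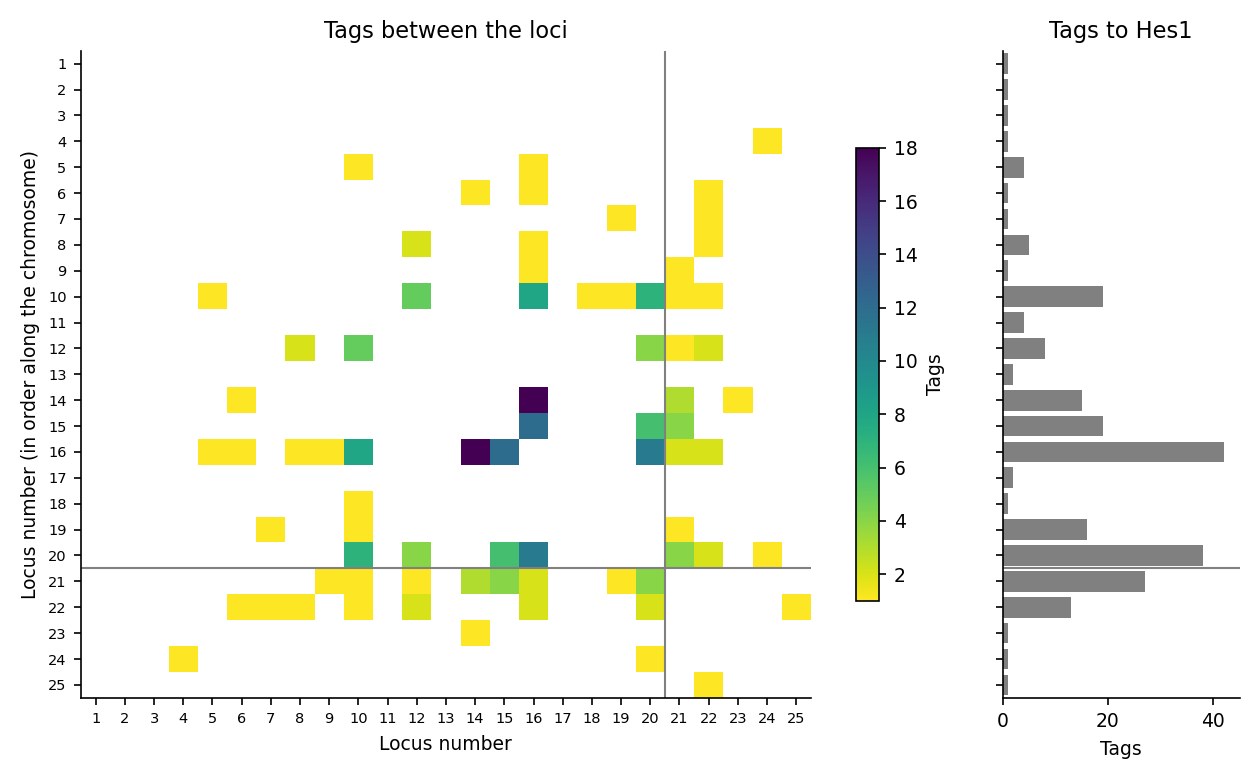
Tags of the loops between each pair of the 25 loci (color; white where no loop was listed) beside the tags of each locus to *Hes1* (bars). Lines mark the place of *Hes1* between loci 20 and 21. The pair of loci 14 and 16 has the most tags, 18, over 13.3 kb, where they were near the median of each part.

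No looped promoter outside the *Hox* clusters had a higher score, so *Hes1* was set beside the 3 next below it that did not share a promoter anchor. These were the pair *2610035F20Rik* and *Zic2*, a zinc-finger transcription factor, with 172 tags, the pair *Gm15545* and *Prmt1*, an arginine methyltransferase, with 163, and *Akt1s1*, a component of the mTORC1 kinase complex, with 156 at an anchor shared by *Mir707* and *Tbc1d17*. Tags over 100 to 500 kb made up 9.30%, 23.3% and 21.8% of their scores, compared with 81.8% at *Hes1*. Tags under 20 kb made up 63.4%, 39.9% and 24.4%, compared with none listed at *Hes1*. The distal anchors lay near a TSS of another gene in 56.0%, 100% and 100%, compared with 23.3%. Their promoter anchors were 8.69, 2.82 and 3.37 kb wide, so the anchor of *Zic2* was nearly as wide as that of *Hes1*. Loops among their distal loci numbered 50, 82 and 104, compared with 40 at *Hes1*. Tags over 500 kb made up 2.91%, 4.29% and 15.4%, compared with 1.33%. Weighted by tags, the median span was 12.2, 29.5 and 32.7 kb, compared with 174 kb at *Hes1*. With each loop counted once it was 201, 170 and 538 kb, compared with 231 kb, so the order by span differed between these measures and *Akt1s1* had the longer loops by the second. Each is 1 promoter with no replicate, so these differences have no test.

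The promoters most like *Hes1* were found by the shares of tags over 4 classes of span on each side of the gene. The 284 promoters compared were outside the *Hox* clusters, had a score of at least 50 and shared no loop with *Hes1*. This left out *4632428C04Rik* with 75 tags and *Gm26834* with 50, which were joined to *Hes1*. The difference between promoters was the share of tags that would have to move to another class to make them equal, and its median was 0.648. The nearest were *4930558K02Rik* with a difference of 0.167 and *Grn*, which encodes progranulin, with 0.201. They were followed by *Atxn7l3*, a subunit of the SAGA deubiquitinase module, with 0.272, *Maf1*, a repressor of RNA polymerase III, with 0.280 and *Trip6*, a LIM-domain protein, with 0.302. Their scores ran from 50 to 62, and between 75.0% and 100% of their distal anchors lay near a TSS of another gene. Their likeness to *Hes1* in the side and span of tags, and their lower scores, were fixed by how they and *Hes1* were chosen. The share of distal anchors near a TSS of another gene was not used in the choice, and it was 23.3% at *Hes1*.

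**Figure D5:**
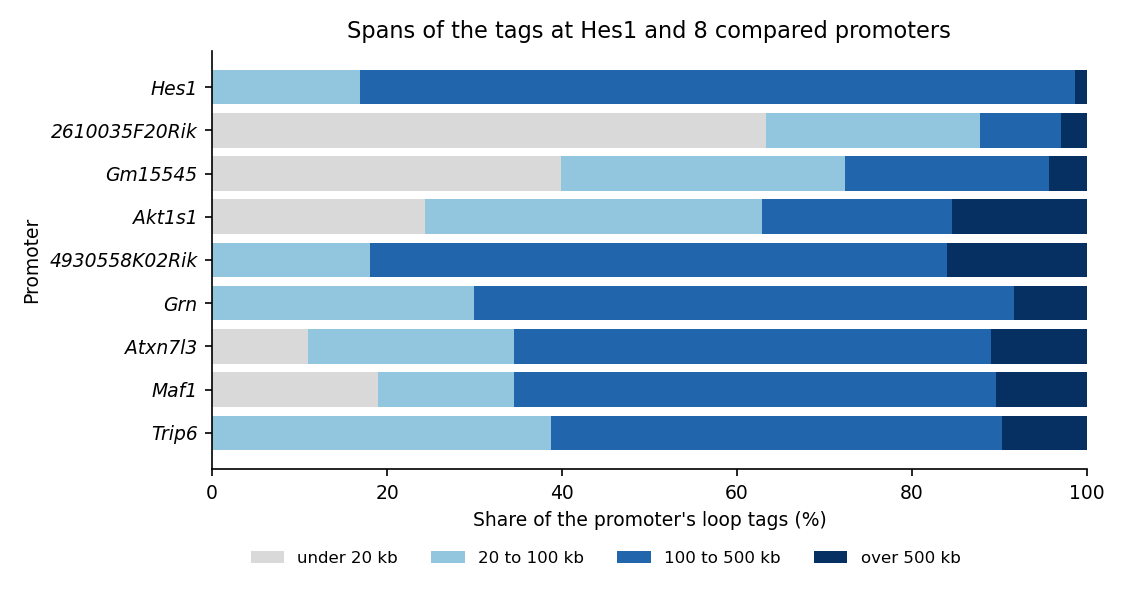
Share of each promoter's loop tags (%) by class of span for *Hes1*, the 3 promoters next below it in score and the 5 most like it. *Hes1* had 81.8% of its tags at 100 to 500 kb and the next 3 had 9.30%, 23.3% and 21.8%. The 5 most like it, which were chosen by such shares, had between 51.6% and 66.0%.

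The relatives of *Hes1* had lower scores, which the choice of *Hes1* by its score fixed in advance. Of 11 other genes of the Hes and Hey families and the related *Helt*, *Bhlhe40* and *Bhlhe41*, 8 had at least 1 loop, with a median score of 3 over the 11. *Hey1*, another Notch target, had the highest score, 29 tags in 8 loops and all in the first part. *Hey2*, *Helt* and *Bhlhe40* had 4 each, *Hes3* and *Bhlhe41* 3 each, and *Hes6* and *Hes7* 1 each. No loop was listed for *Hes2*, *Hes5* or *Heyl*. Over all genes with a TSS 23.9% of 55450 were looped, and over protein-coding genes 45.8% of 21951.

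In the Notch pathway the highest score was that of *Notch4*. Of 30 genes 25 were looped, compared with 45.8% of 21951 protein-coding genes. Their median score was 4.5 over the 30, near the median of 4 over all looped promoters. Among the receptors, *Notch4* had 59 tags, *Notch1* 7, *Notch2* 4 and *Notch3* 1. Among the ligands, *Jag1* had 16, *Dll1* 4 and *Dll4* 2, and no loop was listed for *Dll3* or *Jag2*. Of the Fringe glycosyltransferases, which modify the receptors, *Lfng* had 50, *Rfng* 11 and *Mfng* none listed. In the nuclear complex *Rbpj* had 4 tags and the Mastermind genes *Maml3* and *Maml1* had 36 and 8, with none listed for *Maml2*. Of the genes for γ-secretase, which frees the intracellular part of the receptor, *Psen2* had 12, *Aph1a* 7, *Ncstn* 6 and *Psenen* 4. Among the corepressors that HES1 recruits, *Tle2* had 27, *Tle4* 5, and *Tle1* and *Tle3* 4 each. *Numb* and *Numbl*, inhibitors of the receptors, had 14 and 3, *Adam10*, a protease that cleaves them, 5, the feedback inhibitor *Nrarp* 2, and *Adam17* none listed. The score of *Notch4* was 26.2% of the score of *Hes1*, and the choice of *Hes1* by its score fixed that it would be lower.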

How the data were processed

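H3K27ac HiChIP was performed on 2 *hSS2* tumors, as 2 of 71 samples of the series. The 69 ChIP-seq and input samples were not analysed here. Alignment to mm10 with HiC-Pro and loop calling were done by the authors, who then merged the loops. For the calling, the methods name hichipper with an FDR under 0.05, and a figure legend names Mango with an FDR under 0.01. The FDR values in the list ran up to just under 0.05. The manner of merging is not given in the sources used here. The deposited count of each loop is a whole number of paired-end tags that is not normalized, and the deposited FDR is an adjusted p-value. Positions were converted to start at 1. The total count was 41574 tags, most loops had few tags, and Wilson and exact Poisson 95% intervals cover counting error only. PCR copies may not be independent molecules.

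TSSs came from GENCODE vM21, sequences from GRCm38 and promoters from RefSeq. Loops were assigned within 2 kb, as in the study. The named genes were those at or nearest the distal anchors, the promoters next in score, the 5 most like *Hes1*, and the Hes/Hey and Notch lists. The score of 1 gene of the Notch list is not reported here. *Hes1*, these lists and the comparisons were chosen with earlier results of these data known. With no replicate counts no significance test was made. Alternatives were other windows, TSS sets, FDR and tag minimums, each part alone, joined anchors and leaving out loops under 20 kb. The functions were tested on simulated data. Intervals used scipy 1.17.1, tables pandas 2.3.3 and numpy 2.4.6, and figures matplotlib 3.10.9, under Python 3.11.15.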

Additional observations from a re-analysis of the deposited data

How the results depend on the processing

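The *Hes1* score was 225 tags in the merged list, 169 in the first part alone and 56 in the second. Its rank of 6 became 2 in the second part and 1 without loops under 20 kb, of which *Hes1* had none listed. The rank became 71 when the score was divided by the width of the promoter anchor, a setting chosen after seeing the data. The share of distal anchors near a TSS of another gene, 23.3%, became 10.0% with protein-coding TSSs only and 41.7% in the first part. The 40 loops among the distal loci became 17 with at least 2 tags, 15 in the first part and 25 in the second. The downstream share of tags stayed between 17.9% and 20% under all 12 alternatives run. A list that holds only loops past an FDR threshold, with a median of 1 tag, does not show weaker contacts. No paired analysis was possible because the list holds no count per tumor.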
